A study of Drosophila melanogaster with 4 samples.

Results

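Drosophila melanogaster signals through tumour necrosis factor (TNF) with the ligand Eiger (egr), the receptors Wengen (wgn) and Grindelwald (grnd), and the adaptors Traf4 and Traf6. These 5 genes were read out in wing imaginal discs of larvae in the third instar. These discs are epithelial sacs from which the wing and the back of the adult thorax develop. All 5 had a row among the 17559 genes of the deposited table: 4 were listed under these names, and grnd was listed as CG10176 and was found by its gene ID. All 5 passed the filter on low values, as did 8605 genes in all. The study had 4 libraries, 2 from control larvae of genotype y w and 2 from Paip1 mutant larvae, and it asked which transcripts differ between them. Paip1 encodes a partner of poly(A)-binding protein, which coats the poly(A) tail of mRNA. The labels name no Paip1 allele and do not say whether the mutant larvae also carry y and w, so the mutation and the strain background cannot be told apart. They also do not say whether the 2 libraries of a group came from separate collections of larvae, so the spread between them may be technical.

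Eiger is a transmembrane protein that can be shed and bind receptors on other cells. Receptor binding is passed by Traf adaptors and upstream kinases to the kinase cascade of Hemipterous (hep) and Basket (bsk), the fly Jun N-terminal kinase (JNK). In imaginal discs this route is known for the removal of damaged or polarity-deficient cells and for wound repair and regeneration. Grindelwald lies at the apical membrane, where it binds Veli and is linked to the Crumbs polarity complex, and Wengen is found largely in intracellular vesicles. Traf6 carries a RING domain, and Traf4, which binds the kinase Misshapen (msn), does not.

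Values are TPM, the length-corrected share of transcripts, so levels may be compared between genes. The listed values summed to 99.57% and 99.65% of the nominal TPM total in the control libraries and to 91.95% and 93.6% in the mutant libraries, and the read depth is unknown. Where a pair of values is given for a group, replicate 1 comes first. The labels were checked on Paip1 itself, with 112 and 121 TPM in the control pair against 2.37 and 2.22 TPM in the mutant pair. In discs, as in any bulk tissue, fewer cells that express a gene and less RNA of it per cell cannot be told apart.

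In Paip1 mutant discs egr was 2.20-fold higher and Traf4 was 5.39-fold higher than in control discs, wgn was 3.79-fold lower, and grnd stood at nearly the same TPM in both groups. Traf6 was lower by a small margin that depended on the processing. The ligand thus rose while the receptors moved unequally, and so did the adaptors. Of the 5 genes 4 passed the test, limma on log2(TPM + 1) with a Benjamini-Hochberg adjusted p under 0.05 over all tested genes. Among all tested genes 44.8% passed, 15.6% higher and 29.1% lower in the mutant. With so many genes changed, passing the test does not set these genes apart, and their sizes and directions are given below. Over all tested genes the log2 fold changes had a median of -0.22, and each change is also given relative to it.

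**Figure D1:**
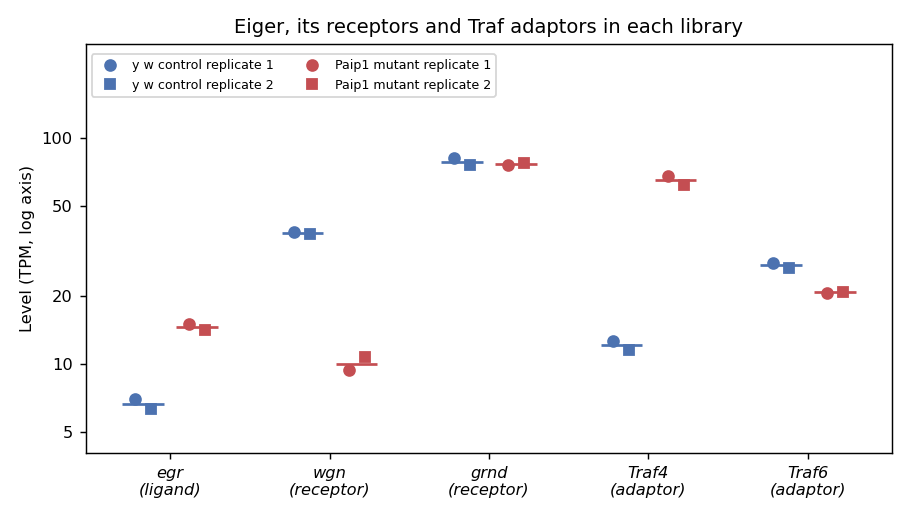
Level of each gene in each library, in TPM on a log axis, with circles for replicate 1, squares for replicate 2 and bars at the group means. The mutant libraries lie above both control libraries for egr and Traf4 and below both for wgn and Traf6, and only for grnd do the groups overlap.

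The ligand gene egr (FBgn0033483) was the lowest of the 5 in control discs. The control pair read 6.94 and 6.31 TPM, the mutant pair 15.0 and 14.1 TPM. Both mutant libraries stood above both control libraries, and the gap was several times the difference within either group. The group means were 6.63 ± 0.446 and 14.6 ± 0.615 TPM (mean ± SD, n = 2 libraries a group, as for all such values). The log2 fold change was 1.03 (SE 0.13, 95% interval 0.70 to 1.36, limma adjusted p = 0.00439), or 1.25 above the median of all tested genes. The rise placed egr 849th of the 8605 tested genes, counted from the largest increase. Its level in control exceeded that of 20.9% of tested genes, and in the mutant that of 35.3%. With 1 library left out the adjusted p lay between 0.0298 and 0.0494.

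The egr gene lies on chromosome arm 2R, plus strand, from 10078366 to 10084210 in dm6, and has 2 annotated transcripts of 2148 and 2166 bases. It overlaps 4 small nucleolar or Cajal body RNA genes on the opposite strand, all within introns. Of these, the deposited table lists scaRNA:MeU1b-A234, at 0 TPM in every library.

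The receptor gene wgn (FBgn0030941) moved the other way. Its control values were 38.3 and 37.5 TPM, and its mutant values 9.35 and 10.6 TPM. Both mutant libraries were far below both control libraries, and the values within a group lay close together. The means were 37.9 ± 0.545 and 9.995 ± 0.912 TPM, a log2 fold change of -1.83 (SE 0.12, 95% interval -2.13 to -1.52, limma adjusted p = 0.000693), or -1.61 relative to the median of all tested genes. Counted from the largest decrease wgn was 207th of the tested genes. In control discs wgn exceeded 61.2% of tested genes in level, and in mutant discs 27.5%. With each library left out in turn its adjusted p ranged from 0.0125 to 0.0238. The gene occupies 18624042 to 18634908 on the minus strand of chromosome X in dm6, with 2 annotated transcripts and no overlapping gene.

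The other receptor gene, grnd (FBgn0032682), was the highest of the 5 in both groups. Control discs had 81.2 and 75.4 TPM and mutant discs 75.9 and 76.9 TPM. Both mutant values fell between the control values. The means were 78.3 ± 4.15 and 76.4 ± 0.721 TPM, and the log2 fold change was -0.03 with a 95% interval of -0.30 to 0.23 (limma adjusted p = 0.805). Relative to the median of all tested genes it stood 0.19 higher, and its sign depended on the scaling: it was 0.19 with median-ratio scaling (adjusted p = 0.18). The interval bounds a change of grnd well inside that of wgn but does not show that grnd was constant. The gene lies on chromosome arm 2L, plus strand, from 18485417 to 18488021 in dm6. One of its annotated exons overlaps kon on the opposite strand, which was at 11.3 TPM in control and 7.19 TPM in mutant discs. Whether the authors' counting used strand is not given in the sources used here, so some reads of kon may have been assigned to grnd or the reverse.

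Within each library the receptor pair can be compared without any scaling between libraries. Of the summed TPM of grnd and wgn, grnd held 68.0% and 66.8% in the control libraries and 89.0% and 87.9% in the mutant ones. The groups did not overlap, and the mean share was 67.4% ± 0.85 in control and 88.4% ± 0.837 in the mutant. An exact two-sided permutation test of 2 against 2 libraries gave p = 0.333, the smallest that this number of libraries allows, here and for each ratio that follows. The level of grnd was 2.07 ± 0.0798 times that of wgn in control and 7.67 ± 0.628 times in mutant discs. The summed receptor level went from 116.2 ± 4.70 TPM to 86.4 ± 1.63 TPM.

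Ligand level per receptor level was higher in both mutant libraries for either receptor. For egr over wgn it was 0.181 and 0.168 in control discs and 1.60 and 1.33 in mutant discs. Thus egr transcripts were fewer than wgn transcripts in each control library and more numerous in each mutant library. For egr over grnd the ratio went from 0.0846 ± 0.00121 to 0.191 ± 0.00985, so egr stayed well below grnd in all 4 libraries. Over both receptors together it went from 0.0570 ± 0.00153 to 0.169 ± 0.0103.

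**Figure D2:**
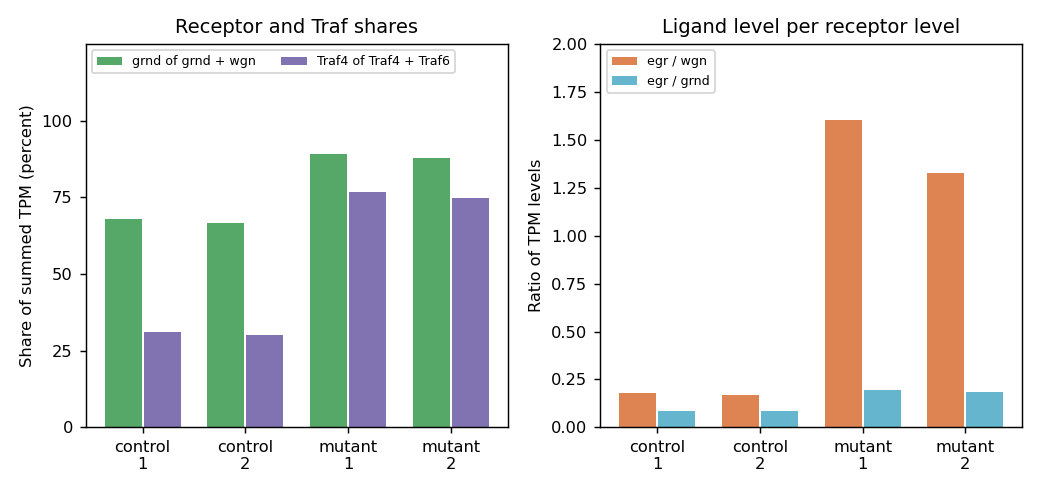
Left, the share (percent) of the summed TPM of grnd and wgn held by grnd and of Traf4 and Traf6 held by Traf4, with 1 pair of bars per library. Right, the ratio of the TPM of egr to that of wgn and of grnd; each mutant library is above both control libraries in all 4 measures, and the egr to wgn ratio passes 1 in the mutant libraries.

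Among the adaptors, Traf4 (FBgn0026319) changed most of the 5 genes. Its levels were 12.6 and 11.5 TPM in the control libraries against 67.8 and 61.9 TPM in the mutant ones. Every mutant value was more than 4 times every control value. The means were 12.0 ± 0.750 and 64.8 ± 4.20 TPM, a log2 fold change of 2.34 (SE 0.12, 95% interval 2.04 to 2.64, limma adjusted p = 0.000308), or 2.56 above the median of all tested genes. Counted from the largest increase Traf4 was 228th of the tested genes. It exceeded 29.2% of tested genes in control and 79.9% in the mutant, and its adjusted p with 1 library left out ranged from 0.00697 to 0.0238. The gene spans 4361925 to 4380716 on the plus strand of chromosome arm 2L in dm6. Its exons overlap the antisense gene lncRNA:CR45363, which was at 0.055 TPM in control and 0.06 TPM in mutant discs.

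Traf6 (FBgn0265464) had 27.9 and 26.6 TPM in control discs, compared with 20.6 and 20.7 TPM in mutant discs. Both mutant values were below both control values, and the mutant libraries were almost equal. The means were 27.2 ± 0.933 and 20.7 ± 0.0566 TPM, a log2 fold change of -0.38 (SE 0.11, 95% interval -0.65 to -0.11, limma adjusted p = 0.0387). This was -0.16 relative to the median of all tested genes, and the call was lost with median-ratio scaling (log2 fold change -0.16, adjusted p = 0.286). Leaving out control replicate 1 gave an adjusted p of 0.236, control replicate 2 0.191, mutant replicate 1 0.0936 and mutant replicate 2 0.0752. The gene is a single-exon gene on the minus strand of chromosome X, from 8154599 to 8157386 in dm6, with no overlapping gene.

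The adaptor pair changed order between the groups. Traf4 held 31.1% and 30.2% of the summed TPM of Traf4 and Traf6 in control discs and 76.7% and 74.9% in mutant discs. The groups did not overlap, and Traf6 was the higher of the pair in each control library while Traf4 was the higher in each mutant library. The summed level was higher in both mutant libraries, with means of 39.2 ± 1.68 TPM for control against 85.5 ± 4.14 TPM for mutant discs. The other gene of this family in the lists, Traf-like, had 0 and 0.05 TPM in the control libraries and 0.45 and 0.2 TPM in the mutant ones, below the filter.

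From highest to lowest the order of levels was grnd, wgn, Traf6, Traf4 and egr in control discs and grnd, Traf4, Traf6, egr and wgn in mutant discs. No neighbours in either order overlapped between their libraries. The closest were grnd and Traf4 in the mutant, whose mean levels differed 1.18-fold, and wgn and Traf6 in control, at 1.39-fold.

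**Figure D3:**
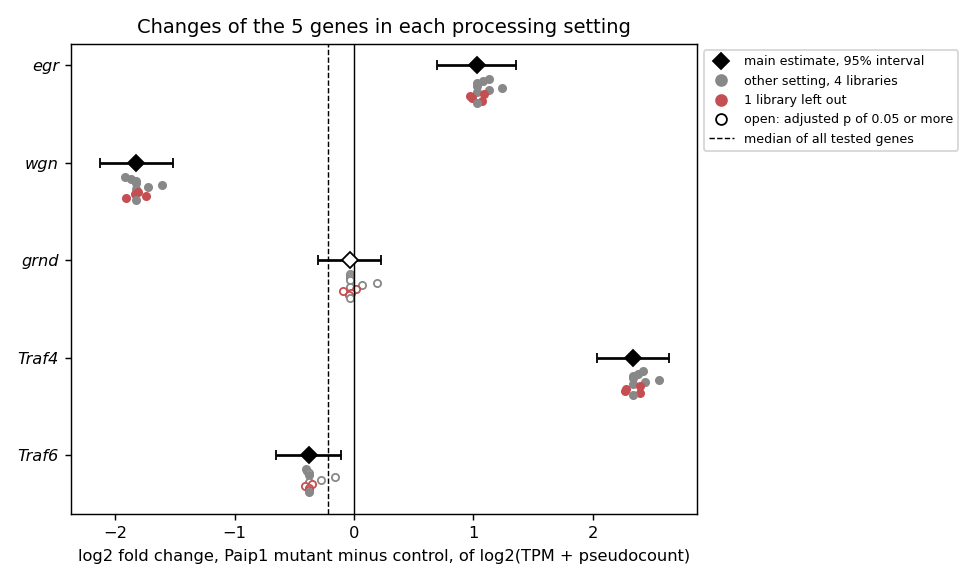
Log2 fold change of each gene, mutant minus control, as the main estimate with its 95% interval (diamond), in 8 other settings with all 4 libraries (grey) and with 1 library left out (red). Open symbols did not pass an adjusted p of 0.05; egr, wgn and Traf4 passed in each of the 12 alternatives, grnd in none, and Traf6 in 4.

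In the authors' deposited table the log2 fold changes were 1.32 for egr, -1.75 for wgn, 0.07 for grnd, 2.58 for Traf4 and -0.23 for Traf6. The adjusted p-values in the authors' deposited table were 1.56e-08 for egr, 1.02e-28 for wgn and 1.53e-55 for Traf4, with 0.735 for grnd and 0.226 for Traf6. The direction of egr, wgn and Traf4 was the same there as in the limma test, and Traf6 did not pass in the authors' deposited table.

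Downstream of the adaptors, the transducers between Eiger and JNK passed at shares near those of all tested genes. Of 15 tested genes of 16 listed, 2 were higher and 5 lower, with a median log2 fold change of -0.29 against -0.22 for all tested genes. The kinase gene msn, whose product Traf4 binds, was at 98.5 and 93.7 TPM in the control libraries and at 128.5 and 146.7 TPM in the mutant libraries (log2 fold change 0.51, limma adjusted p = 0.0217). POSH, a scaffold of the JNK cascade, stood at 40.1 ± 0.276 TPM in control and 58.8 ± 7.87 TPM in mutant discs, a log2 fold change of 0.53 (adjusted p = 0.0267). Uev1A and Diap1, a ubiquitin-conjugating enzyme variant and the inhibitor of apoptosis that restrains caspases, fell with log2 fold changes of -0.50 (adjusted p = 0.0161) and -0.69 (adjusted p = 0.0175). The other 3 that fell, named after their values were seen, were the kinases slpr and wnd and the ubiquitin-conjugating enzyme ben, with log2 fold changes of -0.44, -0.45 and -0.42. The core kinases did not pass, at -0.08 for Tak1, -0.30 for hep and -0.28 for bsk. The calls in this list rested on both control libraries, as did most calls over all tested genes. Its median log2 fold change was -0.30 without control replicate 1 and -0.28 without control replicate 2. With median-ratio scaling 2 were higher and 2 lower.

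The transcription factors and the feedback phosphatase at the end of the cascade moved further. Of 5 tested, 4 were higher and 1 lower, against 15.6% higher and 29.1% lower among all tested genes. This list was chosen with earlier results of these data known, so its direction is not independent evidence. The median log2 fold change of the 5 was 1.11. The Fos gene kay was at 69.6 and 53.9 TPM in control and at 189 and 173 TPM in mutant discs (log2 fold change 1.55, adjusted p = 0.0023). The phosphatase gene puc, which dampens JNK and is itself induced by it, rose by 1.22 on the log2 scale, from 23.2 ± 1.80 to 55.3 ± 1.48 TPM, with an adjusted p of 0.00188. Atf3, a bZIP factor, rose by 1.11, from 6.30 ± 0.0495 to 14.7 ± 1.23 TPM, with an adjusted p of 0.00375. The Jun gene Jra, named after its value was seen, rose less (log2 fold change 0.46, adjusted p = 0.0315), and foxo, a transcription factor restrained by insulin signalling, fell by 0.72 on the log2 scale (adjusted p = 0.0116). With each library left out in turn 3 of the 5 were higher, and the fall of foxo was lost without either control library (adjusted p = 0.102 and 0.0684) and without mutant replicate 1 (0.0667).

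Against 15.6% of all tested genes, all 13 listed JNK target genes of damaged discs were higher in the mutant. Their median log2 fold change was 3.16. Their libraries summed to 315 and 284 TPM in control and to 2505 and 2618 TPM in mutant discs. Ilp8, which encodes a relaxin-like hormone, gave 913 and 1111 TPM of the mutant sums and 5.44 and 1.13 TPM of the control sums. The cytokine gene upd1 was at 6.54 and 6.36 TPM in control and at 145.9 and 113.1 TPM in mutant discs (log2 fold change 4.12, adjusted p = 0.000127). The matrix protease gene Mmp1 stood at 43.7 and 34.4 TPM in control and at 346 and 363 TPM in mutant discs (log2 fold change 3.16, adjusted p = 0.000265). With 1 library left out 11 or 12 of the 13 passed. The list was assembled with earlier results of these data known, so its direction is not independent evidence.

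**Figure D4:**
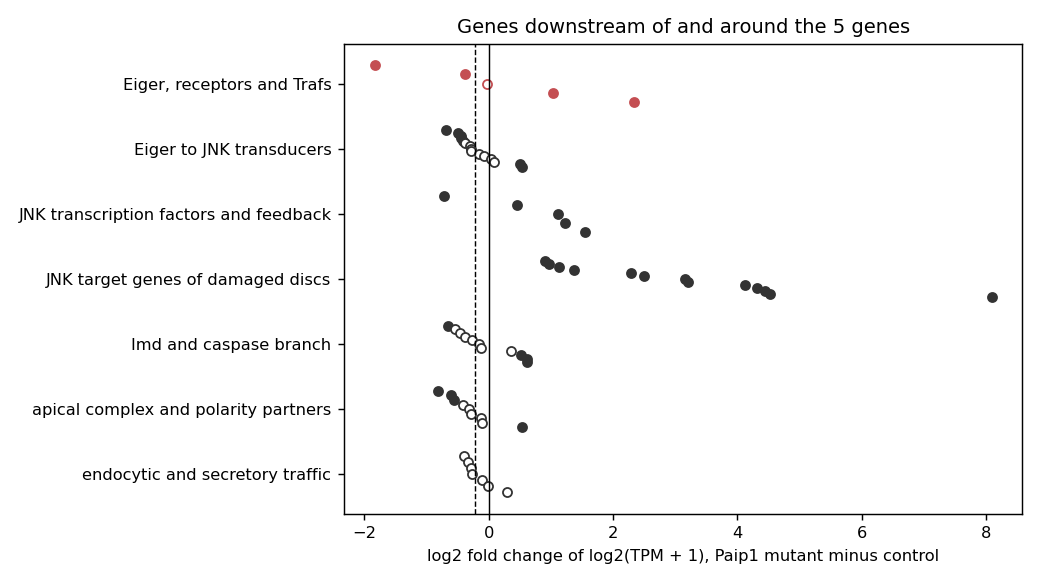
Log2 fold change of the 5 genes (red) and of each tested gene of 6 pathway lists (black), mutant minus control on the log2(TPM + 1) scale, with filled points for an adjusted p under 0.05. The dashed line marks the median of all tested genes, -0.22; the JNK targets lie above it without exception, and the transducers, Imd and caspase, polarity and traffic genes lie on both sides of it.

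Of 11 genes of the Imd and caspase branch, 3 were higher and 1 lower, together a share near the 44.8% of all tested genes. By direction, 15.6% of all tested genes were higher and 29.1% lower, so falls outnumbered rises there but not in this list. The median log2 fold change was -0.16. With median-ratio scaling it was 0.07, and 4 were higher and 1 lower. The initiator caspase gene Dronc was at 46.5 ± 1.32 TPM in control and 71.7 ± 9.36 TPM in mutant discs, higher by 0.61 on the log2 scale (adjusted p = 0.0185). Its activator Dark and the NF-kappaB gene Rel were higher by 0.52 (adjusted p = 0.0211) and 0.62 (adjusted p = 0.026), and the effector caspase gene Dcp-1 fell by 0.65 (adjusted p = 0.0261) on the log2 scale. The calls in this list also rested on both control libraries, as did most calls over all tested genes. Its median log2 fold change was -0.18 without control replicate 1 and -0.15 without control replicate 2.

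Among 9 genes of the apical complex and epithelial polarity, which include the binding partners of Grindelwald, 1 was higher and 3 lower, a share near the 44.8% of all tested genes. The median log2 fold change was -0.31, and -0.09 with median-ratio scaling, where aPKC no longer passed (adjusted p = 0.0562). The polarity gene par-6 fell from 48.1 ± 1.13 to 27.2 ± 5.90 TPM (adjusted p = 0.0165), and dlg1 and aPKC fell with log2 fold changes of -0.61 and -0.56 (adjusted p = 0.0215 and 0.0259). The Crumbs complex gene sdt was at 36.1 ± 4.74 TPM in control and 52.2 ± 0.743 TPM in mutant discs, higher by 0.53 on the log2 scale (adjusted p = 0.0272). Neither veli nor crb passed, with log2 fold changes of -0.29 (adjusted p = 0.0678) and -0.41 (adjusted p = 0.0529). Here too the calls rested on both control libraries, as did most calls over all tested genes. The median log2 fold change of the 9 was -0.31 without control replicate 1 and -0.32 without control replicate 2. No tested gene of the traffic list (7 of 8) passed at an adjusted p under 0.05 in limma, Rab11 and Rab1 having log2 fold changes of -0.28 and -0.11. At an unadjusted limma p under 0.05 the count was 3 of 7 (Rab5, shi and Hrs, named after their values were seen). Among all tested genes 4753 of 8605 were under that threshold, so the traffic list does not stand out. Tace, which encodes a candidate sheddase of Eiger, was at 0.24 TPM or less in every library.

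The genes whose profile over the 4 libraries lay nearest to each of the 5 were found by Euclidean distance of centred log2(TPM + 1) values. For wgn these were Mnn1, Ect3 and kud, at distances of 0.077, 0.089 and 0.113 on the log2 scale. Mnn1, the fly menin gene, was at 38.6 and 36.0 TPM in control and at 8.78 and 10.6 TPM in mutant discs, close to wgn in level as well. For Traf4 they were tut (0.066), the glutathione S-transferase gene GstE8 (0.109) and the cytochrome P450 gene Cyp9f2 (0.131). Rgk1, slx1 and Argp lay nearest to egr (0.036, 0.043 and 0.061), although Rgk1 was at 0.05 to 1.35 TPM only. Nearest to grnd were Ef1alpha48D, Reps and dos (0.021, 0.031 and 0.037), and to Traf6 Nf-YA, Iml1 and U3-55K (0.016, 0.020 and 0.021). With 4 libraries in 2 groups, such likeness mostly reflects a similar difference between groups.

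Markers of the wing disc epithelium and of other cell types moved between the groups as well. The counts that follow stand beside 15.6% higher and 29.1% lower among all tested genes. With 1 library left out fewer of all tested genes passed as well, so a smaller count there is not particular to a list. The summed level of 8 wing disc epithelium genes was 849 and 803 TPM in the control libraries and 436 and 519 TPM in the mutant libraries, and 6 of the 8 fell, or 2 without either control library. By the mean of all 4 libraries hth and ap were the highest. Of 7 markers of adult muscle precursors, the myoblasts beneath the notum epithelium, 6 were tested and 5 fell. That count was 1 without either control library and 2 without mutant replicate 1, and Hand was at 0 in every library. Their sum was 124.9 and 116.2 TPM in control and 44.6 and 61.1 TPM in mutant discs, and Mef2 and stumps had the highest means over all 4 libraries. All 9 differentiated muscle markers rose, summing to 185 and 201 TPM in control and to 15510 and 15460 TPM in mutant discs. Of the mutant sums sls alone gave 15295 and 15303 TPM, and Act57B came next. Mhc, bt and Prm were below 1 TPM in both control libraries. They passed the filter only through the mutant libraries, so their direction was fixed by the filter.

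For the remaining marker lists the shares to compare with are again 15.6% higher and 29.1% lower among all tested genes. These shares, too, were smaller with 1 library left out. Of 11 hemocyte markers 8 were tested and 4 rose. Of those that rose, Hml, NimC1 and Sr-CI were below 1 TPM in both control libraries. They passed the filter only through the mutant libraries, so their direction was fixed by the filter. Without control replicate 1 the count was 1, without mutant replicate 1 or 2 it was 0, and with a pseudocount of 0.1 or 0.5 it was 2. The summed level of the 11 was 19.5 and 34.5 TPM in control and 41.4 and 49.0 TPM in mutant discs. Most of it in control replicate 1 was crq, at 17.3 TPM, and Pxn was at 1.69 ± 1.56 TPM in control and 14.02 ± 5.57 TPM in mutant discs (limma adjusted p = 0.0125, and 0.0709 and 0.0915 without mutant replicates 1 and 2). The 6 fat body genes, of which Fbp1 and Lsp2 had the highest means over all 4 libraries, summed to 1539 and 506 TPM in control and to 306 and 39.9 TPM in mutant discs. Of these 2 fell, 1 without control replicate 2 or mutant replicate 2 and 0 without control replicate 1. Within a group of 2 libraries, egr, wgn, Traf4 and Traf6 had SDs of 0.274% to 9.13% of their group means. Any relation of these SDs to the fat body values was not tested. Of 6 trachea markers, with verm and serp the highest, 2 rose and 2 fell, while without control replicate 1 none passed and without control replicate 2 only 1 did, a fall. Of 3 tested neuron and glia markers of 7 listed, moody rose and elav fell. The call of elav was lost with median-ratio scaling (adjusted p = 0.0799), without either control library (0.166 and 0.149) and without mutant replicate 1 (0.0947). No marker of any list except Hand was at 0 in both libraries of a group. The part of these cell types in the changes of egr, wgn, Traf4 and Traf6 was not tested.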

How the data were processed

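Per the labels' protocols, RNA of 4 libraries from wing discs of the third instar was extracted with Trizol and read on an Illumina instrument. The submitters' processing notes list FastQC, TopHat, RSEM, DESeq and dm6, with no version or role. The authors deposited 1 value per gene and library with no unit in the header, read here as TPM because most values are not whole and each library adds up to 91.95% or more, and at most 99.65%, of a full TPM total. TPM keeps no depth, and no counts were recovered. Whether strand was used, or any filter, is not given in the sources used here. In addition, the comparison columns deposited by the authors hold, by their headers, a ratio (fold change) and its log2, with a raw and an adjusted p-value.

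The design foresaw a count test for counts and limma for normalized values, so limma 3.58.1 in R 4.3.3 was used on log2(TPM + 1) with a variance trend, two-sided, over 8605 genes that reached 1 TPM in 2 libraries. For low genes the pseudocount pulls the fold change towards 0. Residual degrees of freedom were 2 and prior degrees of freedom 3.27. The script was tested on simulated data. Symbols and dm6 coordinates came from Ensembl annotation 115, with 17253 IDs matched. No 2 libraries held identical values. Ratios were computed with Python 3.11.15, pandas 2.3.3 and numpy 2.4.6.

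The 5 genes, the lists and the tests were chosen with earlier results of these data known. Named were the 5 genes, up to 4 called members of each pathway list by smallest p (the 2 highest where none passed), the 2 highest of each cell type list and the 3 nearest profiles of each gene. Genes named outside this rule are marked where the text chose them by value; the core kinases, veli, crb and Tace were named for their place in the pathway. Alternatives were the pseudocount, filter, scaling, variance model, replicate block and each library left out.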

Additional observations from a re-analysis of the deposited data

How the results depend on the processing

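The calls of egr, wgn and Traf4 held in all 12 alternatives run, with log2 fold changes of 0.97 to 1.24, -1.92 to -1.61 and 2.27 to 2.56. For grnd no alternative passed, and its sign turned with median-ratio scaling (log2 fold change 0.19), with a common sum (0.067) and without control replicate 1 (0.019, the range with 1 library left out being -0.088 to 0.019). Traf6 no longer passed with no filter on low values (log2 fold change -0.38), median-ratio scaling (-0.16), a common sum (-0.28) or no variance trend (-0.38), nor with any 1 library left out (-0.41 to -0.35). Among other named genes Rab1 turned to 0.11 with median-ratio scaling, and crq to 0.14 with it and to 0.019 with a common sum, none of which passed.

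Of all tested genes 3852 changed, 1346 higher and 2506 lower, against 1013 to 3273 with 1 library left out (607 to 1089 higher and 406 to 2184 lower). With median-ratio scaling 1864 were higher and 1469 lower, with a median of -0.003 on the log2 scale over all tested genes. With a common sum 1509 were higher and 1898 lower. With no filter 1531 were higher and 1700 lower.

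With 1 added to each value the share held by Traf4 rose by 43.6 percentage points in place of 45.2, a move larger than the pooled SD of 0.972 between replicates. With 1 library left out these differences were 44.3 to 46.0 points, 20.5 to 21.7 for the share held by grnd, and 0.104 to 0.119 for egr over both receptors.

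The labels do not say that replicate numbers pair the libraries, and the deviations of same-numbered libraries correlated at r = 0.065 over 8605 genes. With the replicate block 4246 genes passed, the calls of the 5 genes were the same, and egr had an adjusted p of 0.00587. DESeq2 was not run, because the table holds no counts. With 2 libraries per group and unknown depth, precision was judged from the spread between libraries. In limma that spread came from the gene itself (2 residual degrees of freedom) and from other tested genes (3.27 prior degrees of freedom).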

Other observations

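The nearest tested genes on either side of each of the 5 genes, chosen by position, did not share their changes throughout. Rip11, 734 bases from wgn, fell by 0.62 on the log2 scale (limma adjusted p = 0.00995), and Bx, the LMO gene on the other side at 51233 bases, stood at 34.5 TPM in control and 9.91 TPM in mutant discs, a log2 fold change of -1.71 (adjusted p = 0.00149), a fall of nearly the size of that of wgn. Beside Traf4, CG17612 at 6 bases and Atet at 16149 bases did not pass and had negative log2 fold changes of -0.51 and -0.41, while Traf4 rose. Next to grnd, CG10283 at 904 bases rose by 1.47 on the log2 scale, from 10.1 to 29.1 TPM, with an adjusted p of 0.00613, and Ugt301D1 on the other side did not pass (log2 fold change 0.67, adjusted p = 0.157). The Jun gene Jra lies 12270 bases from egr and rose by 0.46, and CG1371 on the other side of egr did not pass (log2 fold change -0.06). Both neighbours of Traf6 fell, GIIIspla2 by 1.08 (adjusted p = 0.00508) and CG18262 by 0.50 (adjusted p = 0.0216) on the log2 scale. No count or test over these neighbours was made, and any relation to position was not tested.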
